A study of Mus musculus with 10 samples.

Results

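The 9 receptor genes are described here by their transcript counts. They were the rows named Flt3, Csf1r, Csf2ra, Csf2rb, Csf2rb2, Csf3r, Epor, Il3ra and Il6ra, 9 of the 24062 genes listed, and they were chosen as receptors for haematopoietic growth factors. RNA was sequenced from wild-type mouse LSK cells (Lin-SCA1+KIT+ stem and progenitor cells of the marrow) that had been grown in culture. The 4 IgG libraries came from control cultures on immobilized human IgG at day 14, which carried no Notch ligand and, by the methods, were not sorted into DN stages. The other 6 libraries came from cultures on a high density of the Notch ligand Delta1ext-IgG, with 2 each of DN1 (KIT++CD44+CD25-), DN2a (KIT++CD44+CD25+) and DN2b (KIT+CD44loCD25+). All cultures received murine SCF with human FLT-3 ligand, IL-6 and IL-11, so ligands for FLT3 and for the IL-6 receptor were in the medium of every group. Interleukin-7 had been added before DN2a and DN2b were isolated and not before DN1, so stage and IL-7 cannot be told apart. Each DN group has a replicate 1 and a replicate 2, numbered by the earlier and the later year in the label dates, and within a year DN1 is dated some days before DN2a and DN2b. The IgG libraries carry the names D1, D2, R1 and R2, whose letters the sources used here do not explain. Replicates came from separate LSK isolates. By the methods each isolate gave all DN stages, with DN2a and DN2b sorted from the same condition, but which libraries share an isolate is not given in the sources used here.

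Growth factor receptors let a progenitor respond to the cytokines that keep it alive and steer it into a lineage. FLT3 and CSF1R are receptor tyrosine kinases that bind their ligands as dimers. The receptors for GM-CSF, IL-3, G-CSF, erythropoietin and IL-6 have no kinase of their own and signal through bound Janus kinases and STAT proteins. GM-CSF, IL-3 and IL-5 have private alpha chains and share the common beta chain encoded by Csf2rb. The mouse also has a close copy, Csf2rb2, whose protein serves IL-3 alone. In the marrow, FLT3 marks lymphoid and multipotent progenitors, CSF1R the monocyte and macrophage lineage, the G-CSF receptor neutrophils and their precursors, and the erythropoietin receptor erythroid precursors.

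The beta chain genes are shown first because their counts have to be read together. Their coding sequences were identical at 2503 of 2628 aligned bases (95.2%). In the 60 bases where they differ most, 13 bases are mismatched, and these are in capitals below. The stretch is coding bases 304 to 363 of Csf2rb and 307 to 366 of Csf2rb2, read from the GENCODE vM21 transcripts.
Csf2rb: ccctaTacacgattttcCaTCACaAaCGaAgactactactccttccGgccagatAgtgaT
Csf2rb2: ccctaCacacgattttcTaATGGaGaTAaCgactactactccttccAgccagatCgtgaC
Elsewhere they share unbroken runs of up to 242 coding bases, longer than the 36 bases of each read that were aligned. Of all 36-base words in the transcripts, 17.2% of those of Csf2rb and 26.4% of those of Csf2rb2 also occur in another gene. The deposited counts were read as given, and the separate values of the pair are uncertain to that extent. Of Csf3r words 19.2% recur elsewhere, mainly in a processed pseudogene, and of Csf1r words 14.8%, mainly in Hmgxb3, which overlaps its 3′ end on the other strand. The share was at most 2.83% for the other 5 genes and was 0 for Epor. Antisense genes overlap the starts of Flt3, Il3ra and Il6ra, and the strand setting of the counting is not given in the sources used here, so reads from these genes and their antisense partners cannot be told apart.

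Promoters are shown for 4 genes whose patterns differed, as the 250 bases before the RefSeq start (GRCm38.p6), 5′ to 3′ on the gene's strand. Capitals mark matches on either strand to 5 short motifs, which are spelled out after the sequences. These are chr19:61228419-61228668 for Csf2ra, chr4:126024409-126024658 for Csf3r, chr9:21963577-21963826 for Epor and chr5:147400490-147400739 for Flt3.
Csf2ra: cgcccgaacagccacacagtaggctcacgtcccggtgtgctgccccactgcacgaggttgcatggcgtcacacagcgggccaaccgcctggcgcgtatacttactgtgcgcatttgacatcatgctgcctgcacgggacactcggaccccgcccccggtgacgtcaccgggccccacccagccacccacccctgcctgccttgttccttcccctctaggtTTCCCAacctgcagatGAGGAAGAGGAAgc
Csf3r: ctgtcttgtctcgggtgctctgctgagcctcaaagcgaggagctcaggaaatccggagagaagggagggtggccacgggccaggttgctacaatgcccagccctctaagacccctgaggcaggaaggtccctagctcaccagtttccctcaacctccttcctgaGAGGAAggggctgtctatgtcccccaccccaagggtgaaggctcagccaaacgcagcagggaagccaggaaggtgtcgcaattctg
Epor: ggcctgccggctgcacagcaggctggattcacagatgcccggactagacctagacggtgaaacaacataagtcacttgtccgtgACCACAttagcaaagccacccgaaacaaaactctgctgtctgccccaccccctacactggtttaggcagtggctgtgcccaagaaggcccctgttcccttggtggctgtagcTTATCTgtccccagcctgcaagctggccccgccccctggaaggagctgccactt
Flt3: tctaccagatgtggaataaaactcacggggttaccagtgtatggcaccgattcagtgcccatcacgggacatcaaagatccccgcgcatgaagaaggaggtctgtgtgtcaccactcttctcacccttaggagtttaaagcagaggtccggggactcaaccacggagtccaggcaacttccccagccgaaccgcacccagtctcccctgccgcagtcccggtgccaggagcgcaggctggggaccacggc
RefSeq promoters matched 7 of the 9 genes by symbol, without Csf1r and Csf2rb. The PU.1 core GAGGAA was found in 4 of the 7 (Csf2ra, Csf2rb2, Csf3r and Il6ra) and in 23.3% of all 32851 promoters, with 2 neighbouring copies in Csf2ra between 14 and 3 bases before the start. The GATA core AGATAA was found in Epor, 54 to 49 bases before the start, and in Il6ra, against 9.99% of all promoters. The RUNX core TGTGGT matched Epor alone (14% of all promoters). The E-box CACGTG matched Il6ra alone (6.02%). The RBPJ core TGGGAA matched Csf2ra and Il6ra (21.6%). None of the 5 motifs was found in these 250 bases of Flt3 or Il3ra. The RefSeq starts are not all the same as the GENCODE starts given below. The windows of Il3ra (chr14:14346245-14346494), Csf3r and, at its end, Csf2ra reach into the GENCODE genes. The Csf3r match lies inside its GENCODE gene. The matches are descriptions of letters and not of bound sites.

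Levels are given as CPM (gene counts scaled to a common library total) over gene rows, scaled by the TMM method of edgeR to even out differences in library composition. Counts on genes were between 12354635 and 35367925 per library. A gene at 3 counts or fewer in a library was taken as at the floor, which was 0.088 to 0.239 CPM. Differences between groups are log2 fold changes (log2FC) with standard error (SE), from 1 quasi-likelihood fit of edgeR over all 10 libraries. Adjusted p-values are Benjamini-Hochberg values over the 12221 genes tested, and a gene was called where this value was under 0.05. Of the 9 receptors 8 were tested. Epor missed the filter of at least 1 unscaled CPM in at least 2 libraries, having reached it in DN1 replicate 1 alone, and is described separately. Bulk RNA cannot tell fewer cells of a type from less RNA per cell.

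The summed level of 8 early T cell markers was 48.8 to 97.8 CPM in IgG, 380 and 473 CPM in DN1 and 2269 to 5041 CPM in DN2a and DN2b. The list holds Il2ra, which encodes CD25, by which DN2a and DN2b were sorted from DN1. Il2ra alone had 1622 and 1170 CPM in DN2a and 2176 and 1727 CPM in DN2b. The step from DN1 to DN2a in this sum was thus partly set by the sort. Neutrophil and macrophage markers were high in the unsorted controls. Neutrophil genes (8) summed to 21071 to 71941 CPM there and macrophage genes (7 of 8 listed in the files) to 850 to 3439 CPM. Mast cell and basophil genes went the other way, with 77.7 to 271 CPM in IgG, 378 to 580 CPM in DN2a and 258 to 457 CPM in DN2b. The 2 DN1 libraries differed in several marker lists. In DN1 replicate 1 the neutrophil genes summed to 2491 CPM against 78.8 CPM in DN1 replicate 2, mast cell and basophil genes to 1433 against 446.9 CPM, megakaryocyte genes to 393 against 130.5 CPM and erythroid genes to 98.1 against 0.797 CPM. Most of the mast cell sum in DN1 was Cpa3 (985.5 and 333.1 CPM), and most of the megakaryocyte sum was Itga2b (331.2 and 120.9 CPM). Itga2b also had 116.6 and 139.4 CPM in DN2a. The macrophage list summed to 12.3 and 13.0 CPM in the 2 DN1 libraries. Of the macrophage genes, Cd68 had 10.3 and 11.9 CPM in the DN1 libraries, and Msr1 and C1qa had 0 counts in both. B cell genes (6) summed to under 7.80 CPM in every library.

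Gene positions are those of GENCODE vM21 on GRCm38 (mm10). Flt3 spans chr5:147330741-147400489 on the minus strand, and Csf1r chr18:61100598-61132149 on the plus strand. Csf2ra is at chr19:61223957-61228429 (minus) and Il3ra at chr14:14346275-14356011 (plus). The beta chain genes are neighbours on chromosome 15, with Csf2rb2 at chr15:78282507-78305721 (minus) and Csf2rb at chr15:78325752-78353847 (plus). Csf3r lies at chr4:126024550-126044440 (plus), Epor at chr9:21958897-21963506 (minus) and Il6ra at chr3:89864059-89913196 (minus).

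**Figure D1:**
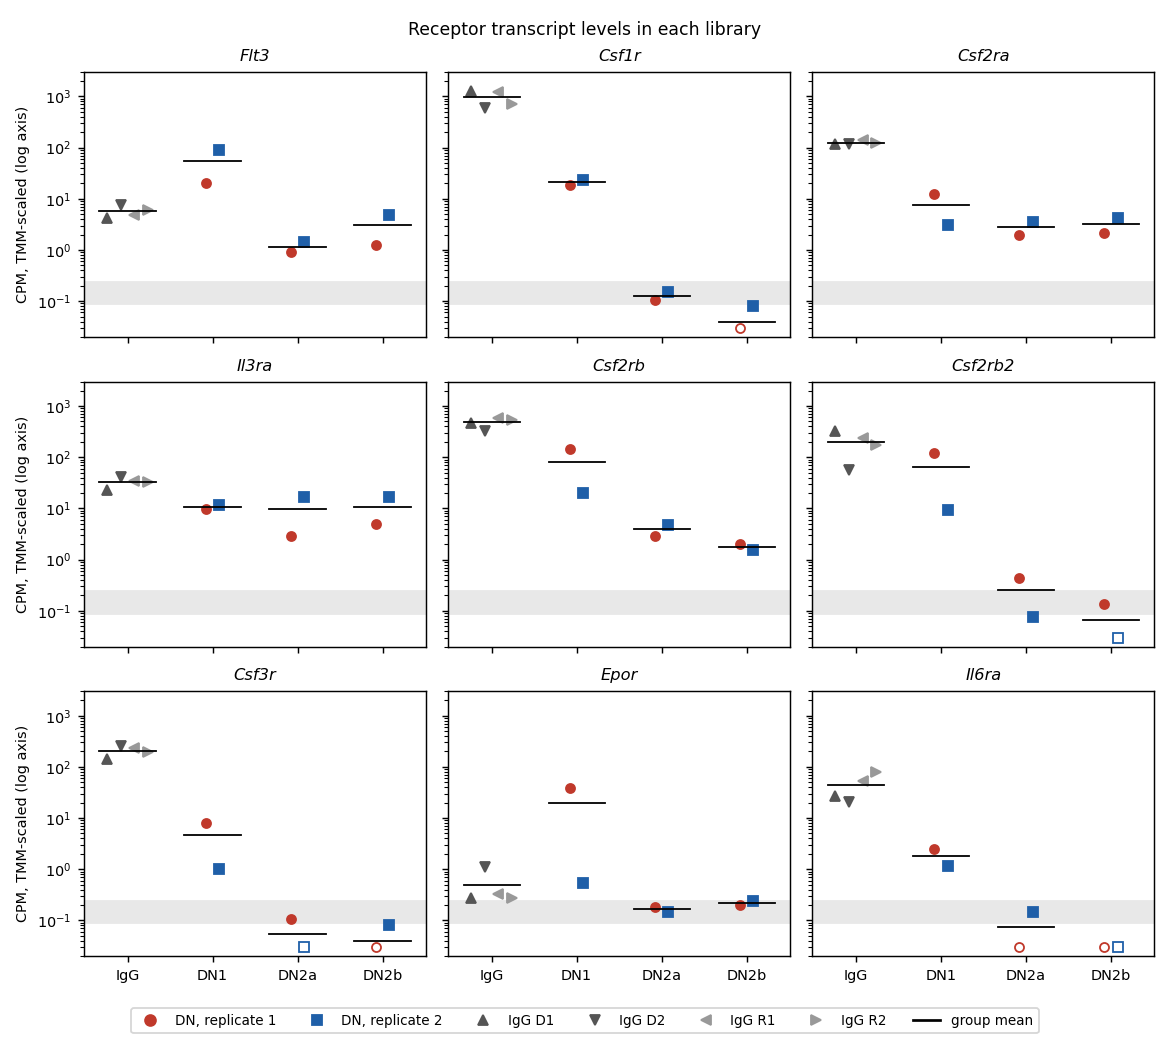
Level of each receptor in each library, in TMM-scaled CPM on a log axis, with 1 symbol per library, a black line at the group mean, open symbols at the bottom for 0 counts and a grey band for the floor of 3 counts over the libraries (0.088 to 0.239 CPM). Flt3 was highest in DN1, at 20.2 and 90.0 CPM, whereas the other tested receptors were highest on average in IgG and Epor was high in 1 DN1 library.

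Flt3, the receptor for FLT-3 ligand, was the only one of the 8 tested receptors with its highest mean in DN1. It stood at 20.2 CPM in DN1 replicate 1 and 90.0 CPM in replicate 2. The IgG libraries D1, D2, R1 and R2 had 4.25, 7.47, 4.90 and 6.01 CPM. DN2a had 0.895 and 1.41 CPM and DN2b 1.27 and 4.77 CPM, replicate 1 first. Both DN1 libraries thus lay above every other library, both DN2a libraries lay below every IgG library, and DN2b overlapped with IgG and with DN2a.

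Against IgG, Flt3 was higher in DN1 by a log2FC of 3.28 (SE 0.60, edgeR adjusted p = 0.00447). Without DN1 replicate 2 the difference was 1.84 and the call was lost (edgeR adjusted p = 0.080). Of 8 tested receptors it was the only one called higher in DN1, where 14.3% of all genes tested were called higher and 17% lower. In DN2a it was lower than in IgG (log2FC -2.31, SE 0.73, edgeR adjusted p = 0.0283), and this call was lost without either DN2a library, at 0.184 without replicate 1 and 0.0913 without replicate 2. DN2b did not pass against IgG (log2FC -0.91, SE 0.67, edgeR adjusted p = 0.291). Progenitor and dendritic markers also differed between these libraries. Of the 7 stem and progenitor genes, 2 were called higher in DN1 than in IgG (Kit and Cd34) and 1 lower (Ly6a). Cd34 averaged 676 CPM in DN1 and 74.8 CPM in IgG (log2FC 3.18, edgeR adjusted p = 0.00145), and Ly6a, which encodes SCA1, 179 and 599 CPM (-1.74, 0.0315). Cd48 averaged 142 and 50.0 CPM and was not called. The list summed to 915.7 and 1773 CPM in DN1, to 494 to 1388 CPM in IgG and to 792 to 909 CPM in DN2a and DN2b. The dendritic list summed to 41.2 and 119.1 CPM in DN1. It summed to 561.2 CPM in IgG D2, the control with the most Flt3, and to 35.3 to 101.4 CPM in the other controls. A single gene made up most of the sum in DN1 (Itgax, 35.5 and 116 CPM) and another in IgG D2 (H2-Aa, 510.6 CPM). H2-Aa had 5.00 and 0.648 CPM in DN1. The part of the progenitor and dendritic markers in the Flt3 level was not tested.

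From DN1 to DN2a, Flt3 fell by 5.60 on the log2 scale (SE 0.89, edgeR adjusted p = 0.0459). Within a replicate number it was 22.6-fold lower in DN2a in replicate 1 and 63.8-fold lower in replicate 2. The call was lost, at edgeR adjusted p from 0.0598 to 0.45, without DN1 replicate 1, without either DN2a library and without any 1 of the 4 IgG libraries. From DN1 to DN2b the fall was 4.19 (SE 0.82, edgeR adjusted p = 0.0378), with 15.9-fold in replicate 1 and 18.9-fold in replicate 2. Leaving out 1 library kept that call in 2 of 10 fits, those without DN1 replicate 1 and without IgG D2, with edgeR adjusted p up to 0.226 in the others. DN2b was above DN2a in both replicates, by 1.40 in the fit (SE 0.79, 95% interval -0.14 to 2.94), which did not pass (edgeR adjusted p = 1). Replicate 2 had more Flt3 than replicate 1 at each stage, 4.46-fold in DN1 (95% counting interval 4.05 to 4.92), 1.58-fold in DN2a (0.821 to 2.98) and 3.77-fold in DN2b (2.22 to 6.69). Such intervals cover counting error only.

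Csf1r, the receptor for CSF1 and IL-34 on macrophages, was the most abundant of the receptors in the controls. IgG D1 and R1 had 1303 and 1249 CPM and IgG D2 and R2 591 and 706 CPM. The macrophage list was also higher in D1 and R1, at 3439 and 2057 CPM, than in D2 and R2, at 1243 and 850 CPM, and its part in the Csf1r level was not tested. DN1 kept 18.3 and 23.8 CPM. In DN2a there were 3 and 2 counts and in DN2b 0 and 1 count. The groups did not overlap between IgG, DN1 and the DN2 libraries.

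Csf1r was lower in DN1 than in IgG by 5.51 on the log2 scale (SE 0.51, edgeR adjusted p = 2.44e-04), and this call held in all 20 alternatives that gave a value. The DN1 level in replicate 1 was 0.766 times that in replicate 2 (95% counting interval 0.674 to 0.871). From DN1, pooled counts were 171-fold lower in DN2a (95% counting interval 73.0 to 528, 971 against 5 counts; edgeR adjusted p = 0.0140). Against DN2b the ratio was 568 (102 to 22476, 971 against 1 count; edgeR adjusted p = 0.00316). The DN2a call was lost without DN2a replicate 1 (0.145) or 2 (0.0892), and the DN2b call held in all 22 alternatives. Against IgG, Csf1r was called lower in DN2a (edgeR adjusted p = 1.46e-05) and DN2b (1.52e-05), with IgG 7926-fold above DN2a (3396 to 24410).

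Csf2ra encodes the alpha chain that binds GM-CSF. Its IgG levels were close together, at 117.5, 117.5, 140 and 123 CPM. DN1 had 12.3 CPM in replicate 1 and 3.09 CPM in replicate 2, DN2a 1.93 and 3.56 CPM and DN2b 2.14 and 4.22 CPM. All DN libraries lay below all IgG libraries, and DN1 replicate 2 lay within the DN2 range. Against IgG it was lower by 4.01 in DN1 (SE 0.59, edgeR adjusted p = 0.00174), by 5.52 in DN2a (SE 0.65, 4.03e-04) and by 5.30 in DN2b (SE 0.65, 0.00046). These 3 calls held in each of their 20 alternatives. Between DN stages nothing was called. DN2a minus DN1 was -1.51 (95% interval -2.67 to -0.36, edgeR adjusted p = 0.384), and without DN1 replicate 2 it was called at -2.19 (0.0494). Among libraries numbered 1, DN1 was 6.34-fold above DN2a, and among those numbered 2 it was 0.867-fold.

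Il3ra, the IL-3 alpha chain, had stage means within an order of magnitude of the control mean. It had 22.9, 40.8, 34.5 and 33.4 CPM in IgG D1, D2, R1 and R2. In DN1 it had 9.82 and 11.8 CPM, in DN2a 2.83 and 16.4 CPM and in DN2b 5.07 and 16.4 CPM. Every DN library lay below every IgG library, and the DN stages overlapped. It was lower than IgG by 1.61 in DN1 (SE 0.68, edgeR adjusted p = 0.102), by 1.79 in DN2a (SE 0.69, 0.0601) and by 1.62 in DN2b (SE 0.69, 0.0837), and none of these passed. Each was called in 4 of 20 alternatives, DESeq2 among them, with adjusted p of 0.0351, 0.0139 and 0.0315 there. With DN2a replicate 1 left out the difference in DN2a was -1.0 (edgeR adjusted p = 0.272) and with replicate 2 left out -3.54 (0.0137), and in DN2b it was -1.0 without DN2b replicate 1 and -2.69 without replicate 2, neither called. Leaving out DN2a replicate 2 gave edgeR adjusted p of 0.0417, 0.0137 and 0.0317 for the 3 comparisons.

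The Il3ra level followed the replicate number within DN2a and DN2b. Replicate 2 exceeded replicate 1 by 5.80-fold in DN2a (95% counting interval 4.47 to 7.60) and 3.23-fold in DN2b (2.47 to 4.26), against 1.20-fold in DN1 (1.01 to 1.44). DN1 was 3.47-fold above DN2a in replicate 1 and 0.720-fold in replicate 2. Over both replicates the log2 difference of DN2a from DN1 was -0.18 (95% interval -1.63 to 1.26) and that of DN2b from DN1 was -0.01 (-1.46 to 1.43), so shifts of more than 2-fold in either direction lie within the intervals.

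Csf2rb, the common beta chain, and its copy Csf2rb2 separated the DN1 libraries. Csf2rb had 460, 326, 589 and 540 CPM in IgG D1, D2, R1 and R2. DN1 replicate 1 had 142 CPM and DN1 replicate 2 19.6 CPM, a 7.25-fold gap (95% counting interval 6.53 to 8.06). Csf2rb then stood at 2.94 and 4.83 CPM in DN2a and 2.002 and 1.511 CPM in DN2b. The 4 groups did not overlap, in the order IgG, DN1, DN2a, DN2b.

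Csf2rb2 had the same order of group means, and its IgG and DN1 libraries overlapped. IgG D1, R1 and R2 had 325, 241 and 177 CPM, and IgG D2 had 57.4 CPM. DN1 replicate 1 had 122 CPM, above IgG D2, and DN1 replicate 2 had 9.42 CPM, 13.0-fold less (95% counting interval 11.2 to 15.1 for the ratio). In DN2a there were 12 and 1 counts, and in DN2b 2 and 0 counts. The summed neutrophil, mast cell and megakaryocyte lists were also higher in DN1 replicate 1, by 31.6-fold, 3.21-fold and 3.01-fold. The mast cell and megakaryocyte sums were mostly Cpa3 and Itga2b. The part of these lists in the beta chain levels was not tested.

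Csf2rb was lower than in IgG by 2.56 in DN1 (SE 0.69, edgeR adjusted p = 0.0217), by 6.96 in DN2a (SE 0.89, 5.51e-04) and by 8.08 in DN2b (SE 0.95, 3.84e-04). With D1 and D2 as the only controls the DN1 call was lost (edgeR adjusted p = 0.0862). With 1 library left out the DN1 difference ranged from -4.61 to -1.74. Csf2rb2 was not called in DN1 against IgG (log2FC -1.60, SE 0.96, 95% interval -3.48 to 0.27, edgeR adjusted p = 0.229). With 1 library left out its difference ranged from -4.41, without DN1 replicate 1, to -0.70. In DN2a it was called lower than IgG (log2FC -9.39, SE 1.53, edgeR adjusted p = 0.00154), and in DN2b the pooled ratio of IgG over DN2b was 2730 (95% counting interval 756 to 22542; edgeR adjusted p = 0.00140).

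Between DN1 and DN2b both beta chains were called lower in DN2b. For Csf2rb the log2FC was -5.52 (SE 0.88, edgeR adjusted p = 0.0181), with 71.2-fold in replicate 1 and 13.0-fold in replicate 2. The call was lost without DN2b replicate 1 (0.143) or 2 (0.126). It was also lost in the fit of the 6 DN libraries, with a replicate block by label year (log2FC -5.25, edgeR adjusted p = 0.0858) and without one (-5.53, 0.0554). For Csf2rb2 the pooled ratio was 1021 (95% counting interval 282 to 8432; edgeR adjusted p = 0.0299). With 1 library left out the call held in 3 of 10 fits and was lost (0.0508 to 0.205) without DN1 replicate 1, either DN2a library, either DN2b library, IgG R1 or IgG R2. From DN1 to DN2a the differences, -4.40 (SE 0.82) for Csf2rb and -7.79 (SE 1.48) for Csf2rb2, did not pass (edgeR adjusted p = 0.0677 and 0.0760). Without DN1 replicate 2 they were called (0.00316 and 0.0104), and with the replicate block Csf2rb2 was called (-7.98, 0.0135).

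Csf3r and Il6ra, the receptors for G-CSF and IL-6, were at or below the floor in DN2a and DN2b. Csf3r had 145, 256, 233 and 197 CPM in IgG D1, D2, R1 and R2. It had 8.15 CPM in DN1 replicate 1 and 0.997 CPM in DN1 replicate 2, where 20 counts were found. DN2a had 3 and 0 counts and DN2b 0 and 1 count. It was lower in DN1 than in IgG by 5.49 on the log2 scale (SE 0.84, edgeR adjusted p = 0.00204), and IgG was 2924-fold (95% counting interval 1001 to 14182) above DN2a and 5837-fold (1048 to 230558) above DN2b in pooled counts (edgeR adjusted p = 2.54e-04 and 2.60e-04). All 3 calls held in their 20 alternatives.

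DN1 exceeded DN2b in Csf3r by 140-fold in pooled counts (95% counting interval 24.98 to 5573; edgeR adjusted p = 0.0440). That call held in 1 of 10 fits with a library left out, the one without DN1 replicate 2, and in the others the edgeR adjusted p lay between 0.0605 and 0.295. It was lost with the replicate block too (0.148). DN1 exceeded DN2a by 70.4-fold (23.8 to 344; edgeR adjusted p = 0.0831), which was called (0.00423) without DN1 replicate 2. The Csf3r gap between the DN1 libraries was 8.17-fold (5.16 to 13.6). Neutrophil genes moved the same way in them, from 78.8 CPM in replicate 2 to 2491 CPM in replicate 1.

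Il6ra had 26.4 and 20.7 CPM in IgG D1 and D2 and 52.7 and 77.9 CPM in R1 and R2. DN1 had 2.48 and 1.15 CPM, DN2a 0 and 2 counts and DN2b no count in either library. It was lower in DN1 than in IgG (log2FC -4.60, SE 0.84, edgeR adjusted p = 0.00546). IgG was 1026-fold above DN2a (95% counting interval 284 to 8476; edgeR adjusted p = 6.96e-04). In DN2b it was at least 228-fold lower than in IgG, taking 3 counts in each library as the floor (edgeR adjusted p = 6.83e-04). These calls also held in all 20 alternatives. Against DN1, Il6ra was not called in DN2a (39.6-fold lower, 10.7 to 332, edgeR adjusted p = 0.170) or in DN2b (at least 8.78-fold lower, edgeR adjusted p = 0.0739), and DESeq2 called both (adjusted p = 0.00277 and 6.76e-04).

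Epor, the erythropoietin receptor, was found mainly in 1 library. DN1 replicate 1 had 1052 counts (39.0 CPM) and DN1 replicate 2 had 11 counts (0.548 CPM), a ratio of 71.0 (95% counting interval 39.5 to 143). IgG D1, D2, R1 and R2 had 0.280, 1.11, 0.323 and 0.275 CPM, and DN2a and DN2b between 0.148 and 0.239 CPM, with 2 to 5 counts each. DN1 replicate 2 lay inside the IgG range. Tested without the filter on low counts, Epor was higher in DN1 than in IgG by 5.29 (SE 1.09, edgeR adjusted p = 0.0056), and without DN1 replicate 1 the difference was 0.18 (edgeR adjusted p = 0.934).

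Erythroid genes moved with Epor. The list of 8 summed to 98.1 CPM in DN1 replicate 1 and to 0.334 to 5.07 CPM in the other 9 libraries. Of the 8, Hba-a1, Hba-a2 and Hbb-bt had 0 counts in all 10 libraries, and Hbb-bs had 0 in all IgG libraries. Reads that aligned to more than 1 place were not counted on genes, and how many globin reads this removed was not measured. Klf1, an erythroid transcription factor, had 51.5 CPM in DN1 replicate 1 and 0.598 CPM in replicate 2, and Gata1 had 79.6 and 1.89 CPM. Their part in the Epor level was not tested.

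Compared per kilobase of exon, the make-up of the receptor set differed between groups (a description over group means, in CPM per kb). In IgG, Csf1r led at 167 ± 63.4 (SD, n = 4), above Csf2rb at 65.8 ± 15.8 without overlap. Csf3r (57.6 ± 13.4), Csf2ra (43.4 ± 3.70) and Csf2rb2 (42.2 ± 23.8) followed and overlapped with their neighbours in the order. Il3ra (11.1 ± 2.51), Il6ra (5.14 ± 3.05), Flt3 (0.916 ± 0.228) and Epor (0.249 ± 0.205) were lowest, and only Il3ra and Il6ra among them overlapped.

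In DN1 no neighbours in the order were separated. The means were 13.9 ± 16.8 (SD, n = 2) for Csf2rb2, 11.1 ± 11.9 for Csf2rb, 9.94 ± 13.7 for Epor, 8.93 ± 8.00 for Flt3, 3.65 ± 0.475 for Il3ra, 3.64 ± 0.681 for Csf1r, 2.67 ± 2.26 for Csf2ra, 1.27 ± 1.40 for Csf3r and 0.210 ± 0.109 for Il6ra. The libraries differed in what led. Flt3 made up 50.0% of the summed signal in DN1 replicate 2 and 4.01% in replicate 1, where Csf2rb2, Epor and Csf2rb made up 31.6%, 24.0% and 24.0%. In DN2a and DN2b, Il3ra came first, at 3.24 ± 3.24 and 3.62 ± 2.70 (SD, n = 2), followed by Csf2ra at 0.957 ± 0.402 and 1.11 ± 0.513. Their order was separated in DN2b and not in DN2a. Csf2rb (0.533 ± 0.184 and 0.241 ± 0.0476) and Flt3 (0.187 ± 0.0591 and 0.489 ± 0.401) came next, and the remaining 5 genes were at or near the floor. The 9 genes together summed to 289 to 480 CPM per kb in IgG, 81.5 and 29.1 in DN1, and 2.40 to 8.13 in DN2a and DN2b.

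**Figure D2:**
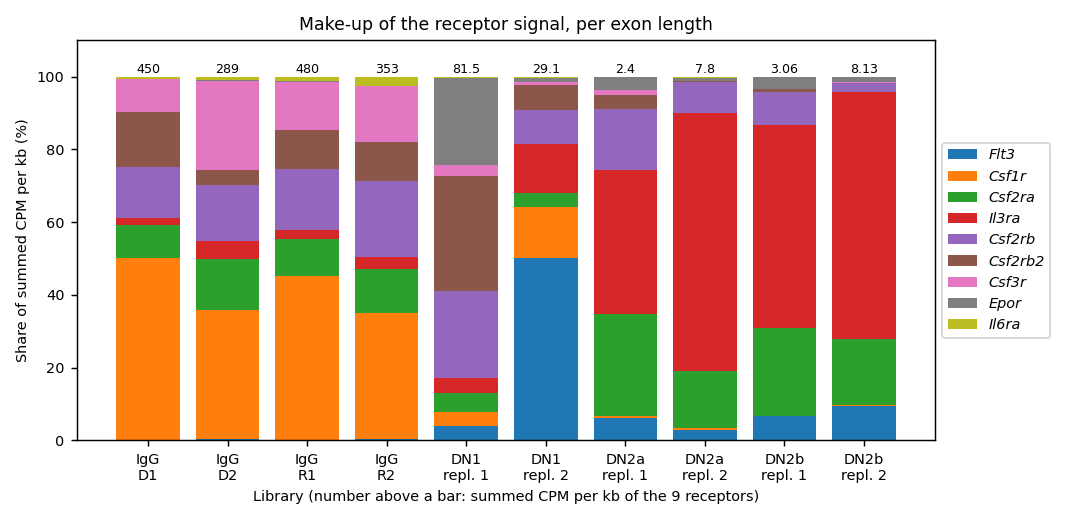
Share of each receptor in the summed CPM per kb of exon of the 9 genes (bars from 0 to 100%), by library, with the sum above each bar. Csf1r took 34.7 to 50.1% in the 4 IgG libraries, Il3ra 39.6 to 70.9% in the 4 DN2a and DN2b libraries, and Flt3 50.0% in DN1 replicate 2.

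Across the set, DN1 against IgG had 1 of 8 tested receptors called higher (Flt3) and 5 lower (Csf1r, Csf2ra, Csf2rb, Csf3r, Il6ra), and 2 not called. The median log2FC was -3.29, against 0.01 over all genes tested. Scaling to library size alone moved the median of all genes to 0.272 and the calls over all genes from 1753 higher and 2081 lower to 2585 and 1625, while the receptor calls were the same in number. In DN2a against IgG none was called higher and 7 of 8 were called lower, where 21.2% of genes tested were called higher and 24.3% lower. In DN2b against IgG none was called higher and 6 of 8 were called lower, where the shares were 19.9% and 22.5%. The median log2FC of the 8 with genes at the floor set to their bounds was -7.69 in DN2a and -7.96 in DN2b, against -0.048 and -0.047 over all genes tested. These 3 comparisons share the IgG libraries.

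Between stages, fewer genes of any kind were called. In DN2a against DN1, 2 of 8 (Csf1r and Flt3) were called lower and none higher, where 0.196% of genes tested were higher and 0.205% lower. DN2b against DN1 had 5 of 8 called lower (Csf1r, Csf2rb, Csf2rb2, Csf3r and Flt3) and none higher, where 1.01% were higher and 0.892% lower. For DN2b against DN2a edgeR called none of the 8, and none had an unadjusted p under 0.05. The share over all genes was 0% higher and 0% lower, and DESeq2 called none of the 8 and 16 genes higher and 13 lower of all. Without DN1 replicate 1, 1 receptor was called in DN2a against DN1 and 3 in DN2b against DN1. Without DN1 replicate 2, 6 were called in DN2a against DN1. Leaving out DN2a replicate 1 or 2 left 0 called in DN2a against DN1, and leaving out DN2b replicate 1 or 2 left 1 in DN2b against DN1. With the replicate block, 3 were called in each of these comparisons.

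**Figure D3:**
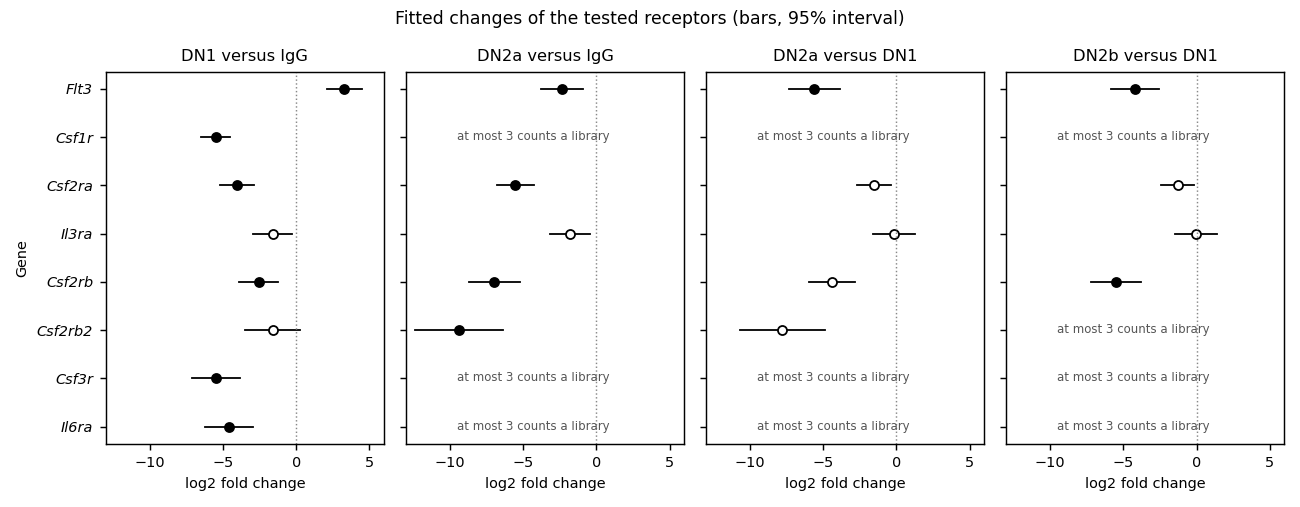
Log2FC from the edgeR fit for the 8 tested receptors in 4 comparisons, with bars for the 95% interval, filled points where the adjusted p was under 0.05 and open points where it was not. Rows marked as having at most 3 counts a library have no point because 1 group was at the floor. Flt3 lies to the right of 0 in DN1 against IgG (3.28) and to the left in the other 3 panels.

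The 2 DN1 libraries can be set beside each other gene by gene. Replicate 1 was above replicate 2 for Epor, Csf2rb2, Csf3r, Csf2rb, Csf2ra (3.97-fold, 95% counting interval 3.02 to 5.29) and Il6ra (2.16-fold, 1.33 to 3.64), and below it for Il3ra, Csf1r and Flt3. The ratio of replicate 1 over replicate 2 thus ran from 71.0-fold for Epor to 0.224-fold for Flt3. The intervals cover counting error only and take the scaling of the libraries as exact. With 2 libraries, a difference between the numbers is a difference between those libraries.

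**Figure D4:**
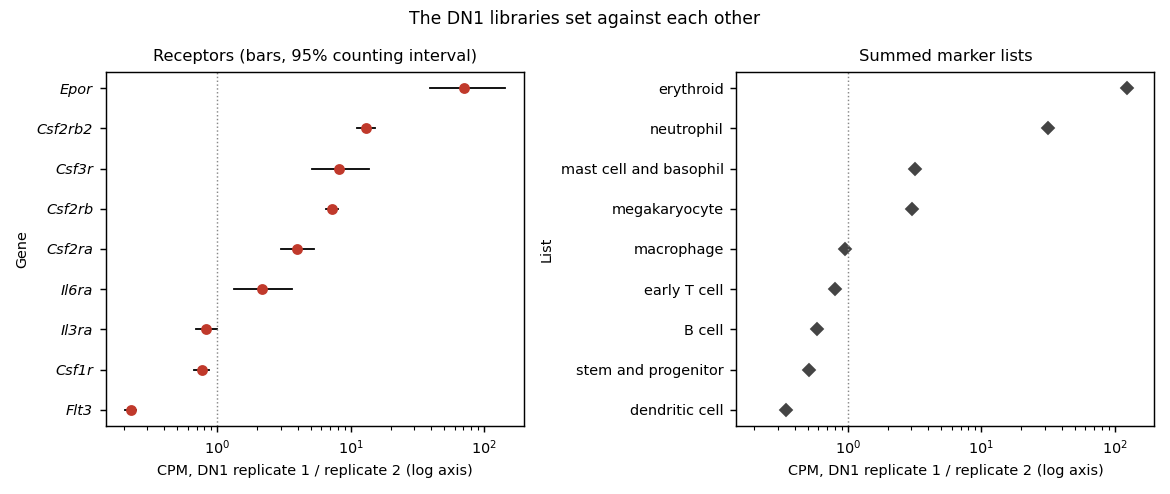
CPM in DN1 replicate 1 divided by CPM in DN1 replicate 2, on log axes, for the 9 receptors (left, bars for the 95% counting interval) and for the summed levels of 9 marker lists (right). Epor (71.0), Csf2rb2 (13.0) and the erythroid (123) and neutrophil (31.6) lists lie far to the right of 1, and Flt3 (0.224) and the dendritic list (0.346) to the left. The dendritic sum was mostly Itgax in both libraries (35.5 and 116 CPM).

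The genes whose log2(CPM + 1) followed each receptor most closely over the 10 libraries were taken from 9752 genes with a mean of at least 5 CPM. These are descriptions, as the libraries fall into the same groups for every gene. Flt3 was followed by Cbfa2t2, Il1r1 and Abcg2 (Pearson r = 0.888, 0.884 and 0.879). Il1r1, the IL-1 receptor, had 26.9 and 80.3 CPM in DN1 and 3.08 to 13.9 CPM in IgG. For Csf1r these were Siglece, Nuak2 and Cd300lb (0.995, 0.995 and 0.992), and for Csf2ra Il1f9, Neu1 and Mtus1 (0.996, 0.996 and 0.995). Il3ra was followed by N4bp2l1, Hyi and Sos2 (0.969, 0.962 and 0.962), which also were lower in replicate 1 than in replicate 2 in DN2a and DN2b. Csf2rb was followed by Ptgs1, Pilra and S100a8 (0.991, 0.990 and 0.988) and Csf2rb2 by Plxnc1, Rnf44 and Wwc2 (0.986, 0.985 and 0.982). Csf3r was followed by Gda and by Cybb, a subunit of the phagocyte NADPH oxidase (0.999 and 0.998), and Il6ra by Sbno2 and Trim41 (0.992 each).

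Receptors that pair with these or bind the other cytokines of the culture were a list of 11, of which 10 were tested. Beside this and the following lists stand the shares of all genes tested, which were 14.3% higher and 17% lower in DN1 against IgG, 21.2% and 24.3% in DN2a and 19.9% and 22.5% in DN2b. In DN1 against IgG, 2 were called higher (Kit and Il1rl1) and 4 lower (Il6st, Il7r, Ifngr1 and Ifngr2). Kit, the SCF receptor by which the cells were gated, had 343 ± 34.2 CPM in DN1 (SD, n = 2) and 66.7 ± 48.1 CPM in IgG (SD, n = 4), with a log2FC of 2.36 (SE 0.52, edgeR adjusted p = 0.00982). Without DN1 replicate 1 only Kit stayed among the higher genes (edgeR adjusted p = 0.0413), and Il1rl1 had 0.292, while 3 were called lower and Il7r had 0.146. Il6st, the signalling chain that IL-6 and IL-11 receptors share, averaged 83.5 CPM in IgG and 9.31, 4.59 and 10.1 CPM in DN1, DN2a and DN2b, and was called lower in all 3 against IgG (log2FC -3.17, -4.16 and -3.05). Ifngr1, an interferon gamma receptor chain, averaged 347, 72.1, 71.7 and 127 CPM in IgG, DN1, DN2a and DN2b and was called lower in each stage than in IgG. Il7r averaged 124 CPM in IgG and 14.7, 16.2 and 35.1 CPM in DN1, DN2a and DN2b. Il2rg, the common gamma chain, did not pass in any of the 6 comparisons, with 185 CPM in IgG and 185, 145 and 207 CPM in the stages. DN2a against IgG had 1 higher (Kit) and 7 lower, and DN2b against IgG 0 higher and 6 lower. DN2b against DN1 had 1 lower, the IL-33 receptor Il1rl1, where 0.892% of all genes tested were lower, and DN2a against DN1 had none, where 0.205% were.

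Of 11 ligand genes 4 were tested. Csf1 averaged 42.6 CPM in IgG and 0.551 CPM in DN1, was called lower in DN1, DN2a and DN2b than in IgG (edgeR adjusted p = 0.0128, 0.00305 and 0.00869), and had no count in DN2a. The other 3 tested, Flt3l, Kitl and Il6, were not called in any comparison. Without DN1 replicate 1 the Csf1 call in DN1 against IgG was lost, with a log2FC of -6.72 there and -6.24 in the fit of all 10 libraries.

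The kinases and adaptors below the receptors were 18 genes, all tested. In DN1 against IgG, 7 were called lower (17% of all genes tested) and 0 higher, in DN2a 10 (24.3%) and 0, and in DN2b 11 (22.5%) and 0. DN2b against DN1 had 3 lower (0.892% of all genes tested), among them Lyn and Fgr. Lyn, a Src-family kinase, averaged 280, 110, 46.7 and 25.3 CPM in IgG, DN1, DN2a and DN2b, with a log2FC of -2.13 in DN2b against DN1 (edgeR adjusted p = 0.00531). Jak1 and Grb2, among the most abundant of the list, were not called in any comparison (Jak1 227, 221, 192 and 188 CPM, Grb2 292, 308, 261 and 213 CPM). Plcg2, a phospholipase, averaged 234, 169, 142 and 80.9 CPM in IgG, DN1, DN2a and DN2b and was called lower than IgG in DN2b (edgeR adjusted p = 0.00285). The median log2FC of the 18 in DN1 against IgG was -0.49, against 0.01 over all genes tested.

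Of 13 negative regulators of receptor signalling, 6 were lower and 0 higher in DN1 against IgG (17% and 14.3% of all genes tested). Without DN1 replicate 1 some of these calls were lost. Among them was Ptpn6, with a log2FC of -0.97 there and -0.81 in the fit of all 10 libraries. DN2a against IgG had 2 higher and 6 lower (21.2% and 24.3%) and DN2b 3 higher and 6 lower (19.9% and 22.5%). Ptpn6, the SHP-1 phosphatase, averaged 330 CPM in IgG and 188, 122 and 81.9 CPM in DN1, DN2a and DN2b, and Adam17, a sheddase, 141, 67.7, 47.6 and 44.7 CPM in the same order. Both were called lower in each stage than in IgG. Inpp5d, the SHIP1 phosphatase, was called lower in DN2a and DN2b, and Spred1 in none of the comparisons. Of the SOCS family genes, Socs3 averaged 99.99 CPM in IgG, 17.4 CPM in DN1, 8.99 CPM in DN2a and 29.3 CPM in DN2b. It was called lower in each stage than in IgG (edgeR adjusted p = 0.0026, 0.000486 and 0.00662) and was not called between stages (edgeR adjusted p = 0.455 in DN2a and 0.487 in DN2b against DN1). Socs2 averaged 1.85 CPM in IgG, 0.678 CPM in DN1, 59.6 CPM in DN2a and 102 CPM in DN2b, with a log2FC of 6.49 in DN2a against DN1 (SE 0.73, edgeR adjusted p = 0.0150) and 7.27 in DN2b (SE 0.75, 0.00340). Cish averaged 5.84, 1.61, 41.5 and 59.0 CPM in the same order and was called higher in DN2a (edgeR adjusted p = 0.0408) and DN2b (0.0111) than in DN1. Socs1 averaged 3.73, 0.912, 10.3 and 37.4 CPM and was called higher than DN1 in DN2b (edgeR adjusted p = 0.0156) and not in DN2a (0.112). These genes are known STAT5 targets that restrain cytokine signalling. Socs1, Socs2, Socs3 and Cish, like C1qa, Hba-a1, Hba-a2, Hbb-bt, Hbb-bs, Il1rl1, Il6st, Ifngr2, Lyn, Fgr, Cebpe, Irf8, Gfi1, Gata1, Gata2, Klf1 and Meis1, were named after their values were seen.

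Transcription factors known to act at these receptor genes were 13, all tested. In DN1 against IgG, 4 were called higher (Gata1, Gata2, Klf1 and Meis1) and 6 lower (Spi1, Cebpa, Cebpb, Cebpe, Irf8 and Gfi1), where 14.3% of all genes tested were higher and 17% lower. Without DN1 replicate 1, Meis1 alone stayed higher (log2FC 2.76, edgeR adjusted p = 0.00686), Gata1 had 0.08 (0.969) and Gata2 0.72 (0.585). Klf1 missed the filter in that fit, in which 12 of the 13 were tested, and Gfi1 lost its lower call (-3.01, edgeR adjusted p = 0.0819). Spi1, which encodes PU.1, had 346 to 465 CPM in IgG, 104 and 72.5 CPM in DN1, 24.4 and 29.7 CPM in DN2a, and 15.1 and 12.3 CPM in DN2b. The 4 groups did not overlap. It was called lower in DN2a than in DN1 (log2FC -1.71, edgeR adjusted p = 0.0459) and in DN2b than in DN1 (-2.68, 0.00340). Cebpa, a granulocyte and monocyte factor, had 167 to 261 CPM in IgG, 12.5 CPM in DN1 replicate 1, 1.44 CPM in DN1 replicate 2 and at most 0.286 CPM in the DN2 libraries. Cebpb averaged 164 CPM in IgG and 7.15, 5.29 and 2.76 CPM in the stages and was called lower in all of them. Meis1, a homeobox factor of stem and progenitor cells, averaged 3.51 CPM in IgG, 33.7 CPM in DN1, 3.26 CPM in DN2a and 5.72 CPM in DN2b, and was called lower than DN1 in DN2a (edgeR adjusted p = 0.0459) and DN2b (0.0400). In DN2a and DN2b against IgG, 7 and 6 of the 13 were lower (24.3% and 22.5% of all genes tested), and 1 was higher in DN2b (Myb, 447 against 153 CPM).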

How the data were processed

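A set of 10 RNA-seq libraries was used. Per the methods, the authors extracted total RNA for sequencing and mapped 36 bases from 1 read end on mm10 by TopHat. They tallied the reads over genes by htseq-count under its intersection-strict setting. They deposited raw counts per gene symbol without normalization. The submitters' processing notes give HTSeq 0.6.1p1. The annotation and strand setting are not given in the sources used here. Summary lines, 20.5 to 41% of each total, were dropped, including 16.4 to 30.1% of reads that aligned to more than 1 place. Counts on genes ranged from 12354635 to 35367925.

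The filter on low counts asked for 1 CPM or more in 2 or more libraries. One model with 4 groups was fitted with edgeR 4.0.16 (quasi-likelihood, TMM, prior count 0.125) in R 4.3.3. Differences were called at a Benjamini-Hochberg adjusted p under 0.05 over 12221 genes. The SE is the log2FC divided by the root of its F value, and intervals of a log2FC are normal ones from it. Ratios of pooled counts have exact 95% intervals conditional on the total. The fit was tested on simulated counts of DN1 against IgG for 12221 genes, of which 200 were set 2 log2 units lower, and recovered 142 with 9 false calls. P-values measure the spread between these libraries.

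Groups came from the sample labels. The receptors, pathway lists and marker lists were chosen with earlier results of these data known. Genes named from a list were its 4 tested genes with the highest mean CPM, and for likeness the 3 with the highest r. Genes named outside that rule are said to be so. Some genes that the rule selects are not reported here.

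Same-numbered DN libraries share a label year but, for DN1, no date, and the fits had no replicate block. Alternatives were DESeq2 1.42.0, library-size scaling, summary lines kept, no filter, filterByExpr, a prior count of 2, a fit of only the 2 groups at issue, a fit of the 6 DN libraries with or without a block, 1 pair of controls (by letter) at a time, leaving out single libraries, glmTreat beyond 2-fold and the beta chain genes summed. Leaving out libraries in the unfiltered Epor fit was added after seeing the data. Python 3.11.15 was used for summaries.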

Additional observations from a re-analysis of the deposited data

Results flagged for a closer look

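Over 23 values tested for a control library far from the other 3, 2 stood apart, where chance flags about 1 in 20. Epor had 1.106 CPM (24 counts) in IgG D2 against 0.275 to 0.323 CPM in the others. The dendritic cell list summed to 561.2 CPM in IgG D2 against 35.3 to 101.4 CPM in the others, and 510.6 CPM of it was 1 gene, H2-Aa. IgG D2 was also the control with the highest Flt3, Il3ra and Csf3r and the lowest Csf1r, Csf2rb, Csf2rb2 and Il6ra.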

How the results depend on the processing

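With 2 libraries a stage, calls between DN stages rest on few libraries, and a lone sample left in a group was assumed to vary like the others. The total of receptors called against IgG stayed within 1.5 times of the values given, although without DN1 replicate 2 none was called higher in DN1 and with no filter or filterByExpr 2 were, while 2 stage comparisons moved. In DN2a against DN1, where 2 receptors were called, DESeq2 called 6, no filter on low counts 5, and 1 was called with only the groups compared, with D1 and D2 or R1 and R2 as the only controls, with glmTreat beyond 2-fold and in the DN libraries without a replicate block. In DN2b against DN1, where 5 were called, 1 was called with only the groups compared, with D1 and D2 as controls and in the DN libraries without a block, and 3 with R1 and R2 as controls, with glmTreat and with the replicate block by year. Leaving out 1 library gave 0 to 6 calls in DN2a against DN1 and 1 to 4 in DN2b against DN1. The cause was not tested.

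After subtracting the stage mean of each gene, same-numbered libraries had a correlation over genes of 0.063 for DN1 and DN2a, 0.189 for DN1 and DN2b and 0.451 for DN2a and DN2b. Which libraries share an LSK isolate is not given in the sources used here, and the numbers were not taken to pair DN1 with the others. In the fit of the DN libraries with the replicate block 3 receptors were called in DN2a against DN1, Csf2rb2 being gained (log2FC -7.98, edgeR adjusted p = 0.0135), while in DN2b against DN1 Csf2rb (-5.25, 0.0858) and Csf3r (-6.27, 0.148) lost the call. None was called in DN2b against DN2a. Over all genes, DN2a against DN1 had 24 higher and 25 lower, but 125 and 349 with DESeq2, 47 and 54 with no filter, 6 and 6 with glmTreat, 44 and 185 without DN1 replicate 2 and none without either DN2a library. DN2b against DN1 had 124 and 109, but 339 and 483 with DESeq2, 56 and 46 with glmTreat and 22 and 34 without DN1 replicate 1. With glmTreat, 549 and 1013 were called in DN1 against IgG. Over single receptors and their alternatives, 893 values kept their direction and side of the threshold, 61 lost the call, 27 gained it and 17 changed sign or came to 0.00, none of these 17 being called. Il3ra in DN2b against DN1 (-0.01) became 0.02 with DESeq2 and 0.01 with summary lines kept, with only the groups compared and with R1 and R2 as controls. With 1 library left out it ranged from -1.09 to 0.60, in DN2a against DN1 from -1.93 to 0.61, and in DN2b against DN2a from -0.91 to 1.92. Csf2ra ranged from -0.34 to 0.71 in DN2b against DN2a and from -1.95 to 0.03 in DN2b against DN1. Csf3r and Il6ra, at the floor in DN2a and DN2b, ranged from -3.82 to 2.87 and from -4.74 to 0.00 between them.

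Unscaled CPM left 35 of 36 group means within 1 SD, Il3ra in DN1 moving from 10.8 to 12.3 CPM. With longest-transcript lengths, 5 of the 9 receptors kept their place in the DN1 order. By Spearman correlation, none of the genes most like Flt3, Csf1r, Csf2ra, Csf2rb, Csf2rb2 or Csf3r stayed among the first 3.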
